A study of Rattus norvegicus with 102 samples.

Results

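The expression of genes in hippocampal subfield CA1 was compared with that in the dentate gyrus (DG) of the same rats. The members were the 34 libraries whose column names carry CA1 and the 34 whose names carry DG, 68 of the 102 libraries of the series, and they were paired by the rat number in front of the name. All ages were pooled, and each direction was also checked in the rats numbered R9 and in those numbered R1 or R2. The rats were male Fischer 344 rats: 10 young (5 to 6 months) and 24 aged (17 to 22 months), of which 12 were aged-unimpaired (AU) and 12 aged-impaired (AI) on a water maze task. No genotype or drug is named in the labels. Poly-A RNA of the dissected subfields was sequenced on the Ion Proton, and each value is a normalized count, that is the reads on a gene divided by 1 size factor for the library. The R9 series held 16 rats (5 young, 6 AU, 5 AI) and the R1-R2 series 18 rats (5 young, 6 AU, 7 AI). What the numbers stand for is not in the labels.

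The DG and CA1 lie at opposite ends of the classical hippocampal circuit. Granule cells of the DG receive input from the entorhinal cortex and send mossy fibers to CA3, and pyramidal cells of CA1 receive the Schaffer collaterals of CA3 as well as direct entorhinal input and are the main output of the hippocampus. The principal cells of both subfields are glutamatergic, but they differ in the transcription factors, receptors, peptides and guidance molecules that they carry. A dissected subfield also holds interneurons, glia, vessels and fiber tracts, and CA2 and the subiculum were not isolated as subfields of their own.

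The reads recovered per library ranged from 5360495 to 21467303 in CA1 (median 10349525.5) and from 4478984 to 18739670 in DG (median 9611060), and 20 of 34 rats had more reads in CA1. The labels were checked against subfield markers before the comparison. Marker genes of CA1, CA3 and DG neurons gave every library 3 scores, each the mean of log2(normalized count + 1), centred for each gene over the 102 libraries. The paper had reported some of these markers as subfield-specific, with these libraries part of its evidence. Of the 68 libraries, 64 scored highest for their own label and 4 for another subfield. These were the CA1 library of rat R9869 (highest for CA3), the CA1 library of R9872 (highest for DG) and the DG libraries of R9781 and R9881 (highest for CA3), all in the R9 series. All libraries were kept under their labels, and the results that rest on these 4 are given with and without their rats. Centred over the 68 libraries alone, libraries of 8 rats scored highest for another subfield. They were the 4 rats above, R9865, R9870 and R9874 of R9, and R2232 of R1-R2. Most CA3 libraries of R9 rats, which also entered the centring over 102 libraries, scored highest for CA1 or DG. Those of R1-R2 rats all scored highest for CA3.

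**Figure D1:**
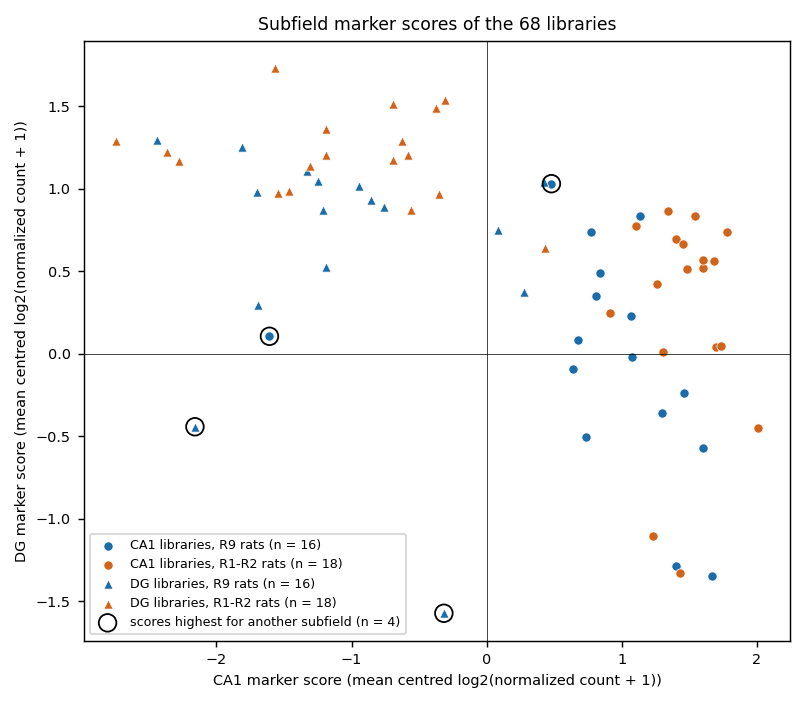
CA1 marker score (horizontal axis) and DG marker score (vertical axis) of the 68 libraries, in mean centred log2(normalized count + 1); circles are CA1 and triangles DG libraries, and colors give the series of the rat. The 4 ringed libraries scored highest for another subfield, and all 4 are from R9 rats.

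CA1 and DG were compared gene by gene with limma on log2(normalized count + 1), with the rat as a block and Benjamini-Hochberg adjusted p under 0.05 as the threshold. Differences are given as CA1 minus DG on this log2 scale with their SE over 34 rats, and they understate the fold of genes with low counts. Over 16301 genes that averaged 5 normalized counts or more across the 68 libraries, 2897 (17.8%) were higher in CA1 and 2773 (17%) higher in DG. The difference reached 2-fold in 218 of the genes higher in CA1 and in 165 of those higher in DG, and it was under 0.5 in size on the log2 scale in 1851 and 2038 of them. In 4717 of the 5670 called genes the SD of the difference over rats exceeded its size. The largest differences of all genes were those of Nts, the precursor of neurotensin, in CA1 (3.57) and of Frem3, an extracellular matrix protein, in DG (-2.97, with means of 1.94 in CA1 and 15.3 in DG); Frem3 was named after its values were seen. The median difference over all genes tested was -0.0051. Without the 4 rats above, 2684 genes were higher in CA1 and 2570 higher in DG. In dissected tissue, fewer cells of a type and less RNA per cell cannot be told apart.

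Directions were then checked in each series of rats alone. In the 16 R9 rats 6305 of 16348 genes passed the threshold (38.6%), and in the 18 R1-R2 rats 2996 of 16241 did (18.4%). Over all rats and in both series, 857 of 16079 genes were higher in CA1 (5.33%) and 701 higher in DG (4.36%). Of 5626 called genes that were tested in both series, 5488 had the same sign in both. Their call over all rats rests on these same series, so this agreement follows in part from the choice of genes. There were 24 genes that passed the threshold in both series with opposite signs. The median size of the difference over all genes was 0.25 in R9 and 0.174 in R1-R2 rats, with a median SE of 0.121 and 0.127. The R9 series had more calls, while the called genes with a 2-fold difference numbered 405 in R9 and 498 in R1-R2 rats. The 12 R9 rats that remained without the 4 gave 5484 calls.

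**Figure D2:**
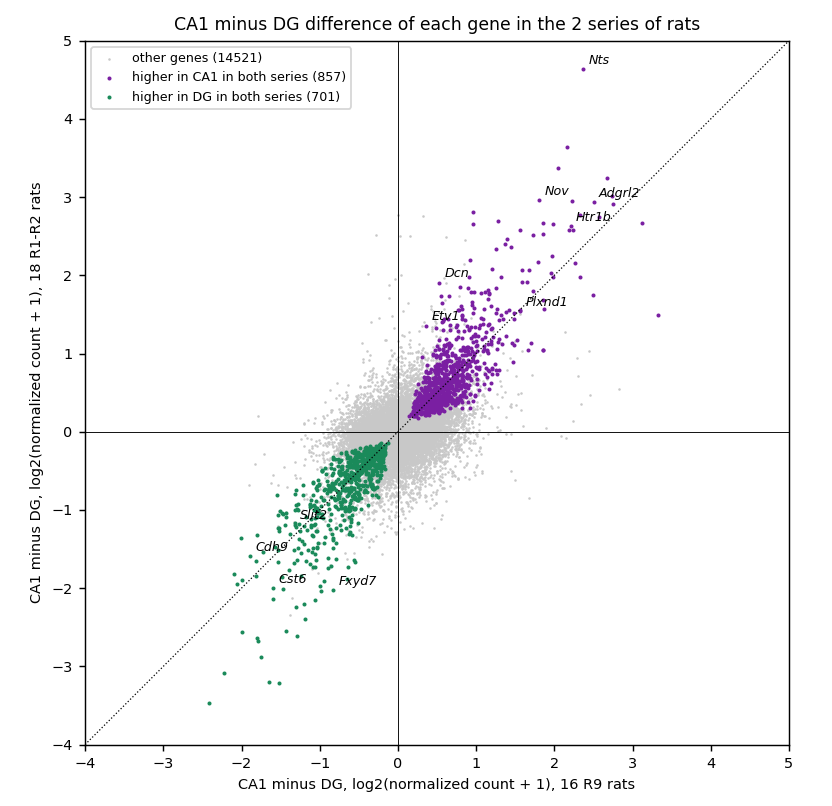
CA1 minus DG difference of each gene, in log2(normalized count + 1), in the 16 R9 rats (horizontal axis) and the 18 R1-R2 rats (vertical axis); the dotted line marks equal differences. The 857 genes higher in CA1 and the 701 higher in DG over all rats and in both series are colored, and Nts is farthest out in the R1-R2 series at 4.64.

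A stricter reading asks for the same direction in every rat. By this count 6 genes were higher in CA1 in all 34 rats (0.0368%) and 8 higher in DG in all 34 (0.0491%), and for no gene did all CA1 libraries lie above all DG libraries or below them. Without the 4 rats named above, 45 genes (0.276%) were higher in CA1 and 24 (0.147%) higher in DG in all 30 remaining rats, and for 2 genes, Hunk, a kinase of the SNF1 family, and AABR07049887.1, the CA1 libraries lay wholly above the DG libraries. These genes were named after their values were seen, as were those that follow. Among the 4 with a symbol that were higher in CA1 in every rat, Dpysl5, a collapsin response mediator protein of growing neurites, had 76.3 to 381 normalized counts in CA1 (median 183) and 26.4 to 222 in DG (median 70.7). The other 3 were Kcp, a secreted modulator of BMP signaling (1.77), Kazn, a cell junction protein (0.88), and Lxn, an inhibitor of carboxypeptidases (0.70). Higher in DG in every rat were Hcrtr2, the type 2 orexin receptor (-1.62), Necab1, a neuronal calcium-binding protein (-1.04), Lgi1, a secreted synaptic protein whose loss causes epilepsy (-0.84), Mrap2, an accessory protein of melanocortin receptors (-0.74), Tmem25 (-0.66), Ptprr, a tyrosine phosphatase (-0.66), Gpr158, an orphan receptor of class C (-0.53), and Rgl1, a Ral exchange factor (-0.41). Their differences within single rats had the same sign throughout but came as close to 0 as 0.00626 for Kazn and 0.0163 for Gpr158.

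The markers of CA1 pyramidal neurons had the largest median difference of the gene lists. All 8 of the tested markers were higher in CA1, each also in both series, with a median difference of 2.35 beside -0.0051 over all genes. The paper showed atlas images of Wfs1, Nov, Ndst4 and Gpr161 with its CA1-specific genes. That label required a pass in the Ion Proton data as well, so their direction here is no independent result. Gpr161, an orphan receptor of the primary cilium that restrains Hedgehog signaling, had 97.6 to 981 (median 580.2) normalized counts in the 34 CA1 libraries and 10.9 to 336 (median 91.8) in the 34 DG libraries. All but 4 of the CA1 libraries lay above the highest DG library. The difference was 2.56 ± 0.23, or 5.9-fold, with an adjusted p of 3.86e-11, and it was positive in 32 of 34 rats. Nov, a secreted matricellular protein of the CCN family, had 207 to 3307 (median 1787) normalized counts in CA1 and 114 to 1445 (median 284) in DG. Its difference was 2.42 ± 0.21 (adjusted p = 3.42e-11), with 1.81 in R9 and 2.96 in R1-R2 rats. The single rat with more Nov in DG was R9869. Fibcd1, a membrane receptor with a fibrinogen-like domain, ranged over 41.8 to 1187 (median 522) in CA1 and 20.6 to 459 (median 93.7) in DG, a difference of 2.42 ± 0.24 (adjusted p = 3.12e-10).

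Ndst4, an enzyme that sulfates heparan sulfate, had 13.9 to 572 (median 227) normalized counts in CA1 and 13.6 to 167 (median 38.3) in DG, and differed by 2.28 ± 0.21 (adjusted p = 9.78e-11). Wfs1, which codes for wolframin of the endoplasmic reticulum, had 1177 to 13265 (median 5324) in CA1 and 292 to 6394 (median 1115) in DG. For Wfs1, 12 of 34 CA1 libraries exceeded the highest DG library, and the difference was 2.21 ± 0.23 (adjusted p = 9.43e-10). Rat R9869 had more of all 5 of these markers in its DG than in its CA1 library, with differences from -1.55 for Gpr161 to -2.65 for Fibcd1 within that rat. Without the 4 rats, the differences became 2.70 for Gpr161, 2.60 for Nov, 2.54 for Fibcd1, 2.5 for Ndst4 and 2.30 for Wfs1. These rats were picked by scores that these markers entered, so the rise follows in part from that choice. Other markers higher in CA1 were Mpped1, a metallophosphoesterase (2.21), and Man1a1, a mannosidase of the Golgi (1.39). Of the 11 markers listed, 9 were in the table, and Spink8 had a mean under 5 and was not tested.

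Markers of DG granule neurons differed by less. Of 13 listed, 11 were in the table and 9 were tested. Of the 9, 7 were higher in DG and 1 higher in CA1, with a median difference of -1.03, beside 17% and 17.8% of all genes. In both series as well, 4 were higher in DG and 1 in CA1. The paper showed Plk5, C1ql2, Dsp and a gene printed as Pdin, which may be Pdyn, with its DG-specific genes. That label also required a pass in the Ion Proton data, so their direction here is no independent result. Plk5, a member of the polo-like kinase family, had 29.8 to 1579.6 (median 564) normalized counts in DG and 0 to 624 (median 235) in CA1, where 1 library was at 0. Its difference was -1.80 ± 0.32 (adjusted p = 3.15e-05), and 31 of 34 rats had more in DG. Pdyn, the precursor of the dynorphin opioid peptides, had 137 to 3088 (median 1767) in DG and 116 to 1488 (median 798) in CA1, a difference of -1.31 ± 0.23 (adjusted p = 1.67e-05). For Pdyn 25 of the 34 DG libraries lay above the highest CA1 library. C1ql2, a secreted organizer of mossy fiber synapses, ranged over 90.4 to 2697 (median 1069) in DG and 41.2 to 1611 (median 417) in CA1, with a difference of -1.23 ± 0.25 (adjusted p = 1.64e-04).

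Prox1, the homeobox factor that maintains granule cell identity, had 181 to 1949 (median 997) normalized counts in DG and 129 to 1100.2 (median 484) in CA1. The difference for Prox1 was -0.99 ± 0.19, or 1.99-fold, with an adjusted p of 8.88e-05. Dsp, the desmosome protein desmoplakin, had 48.5 to 986 (median 529) in DG and 45.3 to 436 (median 249.7) in CA1, a difference of -1.04 ± 0.22 (adjusted p = 3.08e-04). For Prox1 12 and for Dsp 21 of the 34 DG libraries lay above the highest CA1 library, and the others overlapped. The R9 series alone missed the threshold for Prox1 (-0.79, adjusted p = 0.0643), C1ql2 (-1.0, adjusted p = 0.0805) and Dsp (-0.94, adjusted p = 0.06), all of which passed it in R1-R2. In the 12 R9 rats left without the 4, Prox1 (-1.38, adjusted p = 0.0012), C1ql2 (-1.75, adjusted p = 0.0031) and Dsp (-1.57, adjusted p = 0.0021) passed it. Rats R9781, R9872 and R9881 had more of Plk5, Pdyn, C1ql2, Prox1 and Dsp in CA1. Without the 4 rats the differences became -2.19 for Plk5, -1.60 for Pdyn, -1.55 for C1ql2, -1.25 for Prox1 and -1.31 for Dsp, and 8 of the 9 markers were then higher in DG. Scores from these same markers had picked the 4 rats, so these larger differences and the passes in R9 are no independent result. Glis3, a zinc finger factor, was the marker not called over all rats (-0.36 ± 0.17, adjusted p = 0.0843). Sema5b, a transmembrane semaphorin that had been listed as a DG marker, went the other way: it had 69.1 to 379 (median 164) in CA1 and 35 to 186 (median 75.5) in DG, and was higher in CA1 by 1.13 ± 0.11 (adjusted p = 4.22e-10), in 32 of 34 rats.

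**Figure D3:**
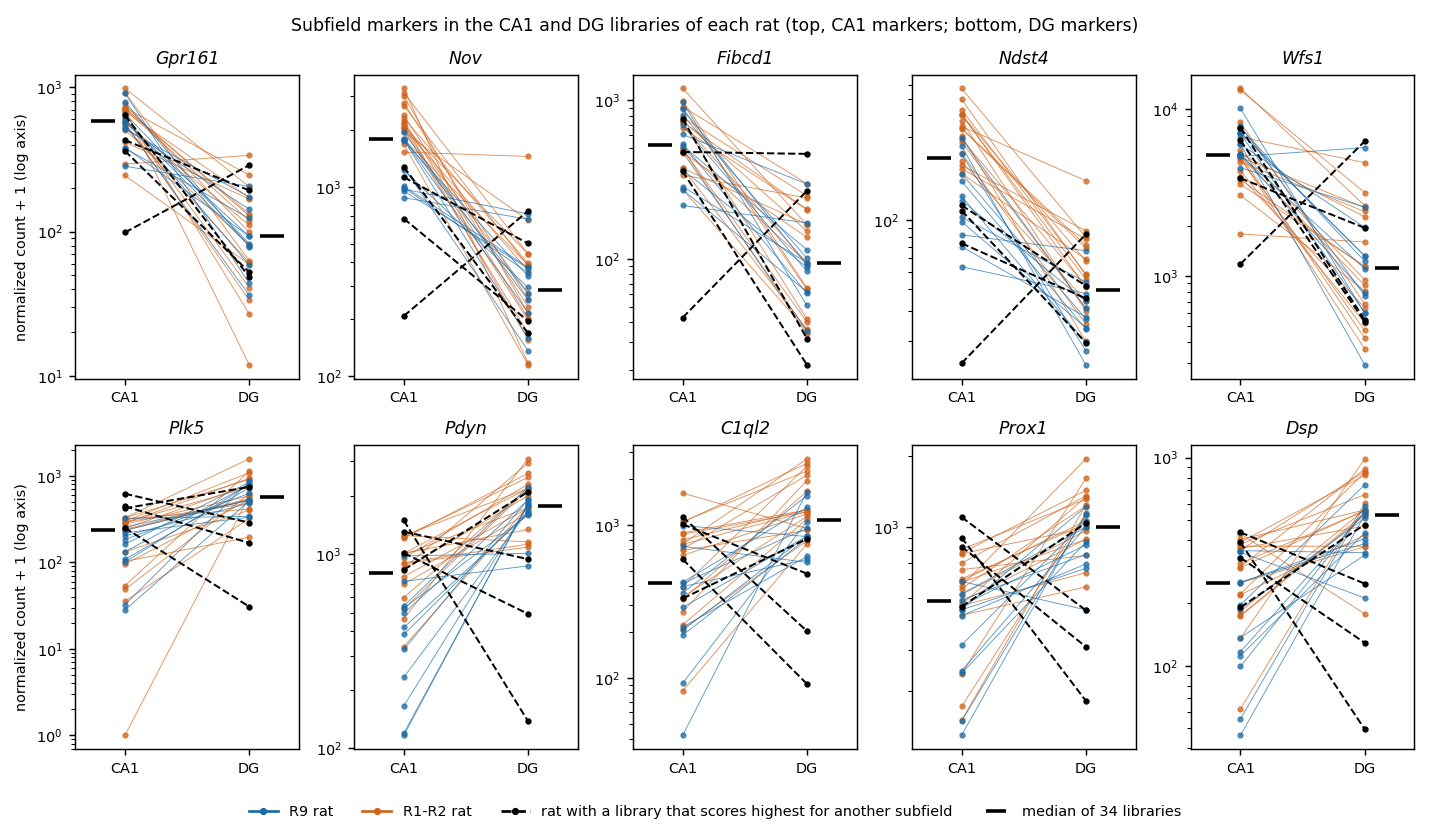
Normalized count + 1 (log axis) of 5 CA1 markers (top) and 5 DG markers (bottom) in the CA1 and DG library of each of 34 rats, joined by a line; colors give the series and dashed black lines the 4 rats with a library that scored highest for another subfield. In all 10 panels the libraries of the subfields overlap, and 1 dashed line runs against most rats for the CA1 markers and 3 for the DG markers; short bars mark the medians.

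The windows around the start sites of Gpr161, the lead marker with the largest difference toward CA1, and of Pdyn in DG are shown as the regulatory sequence nearest to these values; for Nov and Plk5 no entry was used here. They run from 250 bases before to 50 bases after the start site, 5′ to 3′ on the gene's strand, in the RefSeq table of build GRCr8, which holds 7 of the 10 lead markers. Capitals mark the letters of a TATA box (TATAAA) or a GC box (GGGCGG), searched on both strands, and neither motif overlaps the other here.
Gpr161 promoter, chr13:80111021-80111320 (plus strand): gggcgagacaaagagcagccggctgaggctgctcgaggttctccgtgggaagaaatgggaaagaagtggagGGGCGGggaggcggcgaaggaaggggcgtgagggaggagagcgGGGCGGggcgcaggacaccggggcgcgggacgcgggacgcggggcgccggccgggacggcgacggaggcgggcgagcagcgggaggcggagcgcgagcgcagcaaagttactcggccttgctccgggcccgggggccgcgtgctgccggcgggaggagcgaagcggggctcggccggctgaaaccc
Pdyn promoter, chr3:137366454-137366753 (minus strand): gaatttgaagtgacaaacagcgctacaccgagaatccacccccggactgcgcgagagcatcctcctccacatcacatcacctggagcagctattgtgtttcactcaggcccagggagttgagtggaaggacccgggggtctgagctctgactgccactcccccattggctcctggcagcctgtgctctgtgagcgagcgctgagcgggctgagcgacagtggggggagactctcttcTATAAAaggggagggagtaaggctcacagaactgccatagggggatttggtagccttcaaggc
The Gpr161 window held GGGCGG at 2 places, starting 179 and 136 bases before the start site, but not the TATA box, while the Pdyn window held TATAAA once, 13 bases before the start site, but not the GC box. Of all 33469 promoters of the table, 33.1% held GGGCGG on either strand and 14.2% TATAAA. The core of the cAMP response element, TGACG, was in neither window and in 21.2% of all promoters. Among the 7 lead markers with an entry, 4 had GGGCGG (Wfs1, Gpr161 and Fibcd1 of CA1, Dsp of DG) and 1 had TATAAA. A match is a description of the letters and not of binding.

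Among genes past the threshold over all rats and in both series, 10 were chosen toward CA1 by the smallest adjusted p. Plxnd1, a receptor for class 3 semaphorins, had 484 to 1068 (median 708) normalized counts in CA1 and 132 to 977 (median 231) in DG. Its difference of 1.55 ± 0.11 had the smallest adjusted p of all genes (9.13e-13), and a single DG library lay above the median of CA1. Htr1b, an inhibitory serotonin receptor of axon terminals, had 79.4 to 327 (median 172) in CA1 and 4.99 to 128 (median 29.5) in DG, a difference of 2.43 ± 0.19 (adjusted p = 5.09e-12). Adgrl2 (latrophilin 2), a postsynaptic adhesion receptor, had 469 to 1715 (median 1171) in CA1 and 28.5 to 760.3 (median 183) in DG and differed by 2.73 ± 0.22, or 6.64-fold (adjusted p = 5.09e-12). Of the CA1 libraries, 28 lay above the highest DG library for Adgrl2 and 26 for Htr1b.

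Ptpru, a receptor-type tyrosine phosphatase, had 392 to 2536 (median 1744) normalized counts in CA1 and 54.7 to 969 (median 303) in DG, and 31 of 34 CA1 libraries exceeded every DG library. The difference was 2.34 ± 0.20 (adjusted p = 1.98e-11). Nr4a1, an activity-induced nuclear receptor, had 271 to 1206 (median 557) in CA1 and 116 to 642 (median 215) in DG, a difference of 1.30 ± 0.11 (adjusted p = 2.71e-11). The others of the 10 were Nov, Ldb2, a cofactor of LIM-domain transcription factors (1.56), Ttc9, a tetratricopeptide repeat protein (1.13), Pex5l, an accessory subunit of HCN channels (1.11), and RGD1311739 (1.08). Each of the 10 was higher in CA1 in 32 or 33 of 34 rats.

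Toward DG, 10 genes were chosen in the same way. Plcxd2, a phospholipase C-like protein, had 1747 to 4819 (median 3379) normalized counts in DG and 508 to 2385 (median 1317) in CA1, and 32 of 34 DG libraries exceeded every CA1 library. Its difference was -1.39 ± 0.11 (adjusted p = 5.09e-12). Cst6, a secreted inhibitor of cysteine proteases, had 137 to 949.9 (median 651) in DG and 61.3 to 400.1 (median 169) in CA1 and the largest difference of the 10, -1.81 ± 0.15 (adjusted p = 1.11e-11). Slit2, a repellent guidance protein, ranged over 342 to 1498 (median 1123) in DG and 237 to 808 (median 462) in CA1, a difference of -1.25 ± 0.11 (adjusted p = 4.12e-11). Nrp2, a semaphorin receptor, had 518 to 1829 (median 1266) in DG and 244 to 959 (median 548) in CA1, a difference of -1.22 ± 0.11 (adjusted p = 5.20e-11). Syn2, the vesicle protein synapsin II, had 3937 to 8439 (median 6361) in DG and 1878 to 4593 (median 3638) in CA1, and differed by -0.92 ± 0.074 (adjusted p = 7.20e-12).

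A smaller difference was found for Tmem25, a membrane protein of the immunoglobulin superfamily, with 646 to 1463 (median 939) normalized counts in DG and 360.0 to 811 (median 607) in CA1. It was higher in DG in all 34 rats, with a difference of -0.66 ± 0.053 (adjusted p = 7.20e-12). The others were Clstn2, a synaptic calsyntenin (-1.16), Nrn1 (neuritin, a neurite-promoting membrane protein; -0.84), Cdk14, a cyclin-dependent kinase (-0.81), and Sec14l2, a lipid-binding protein (-0.58). Rat R9865 of the R9 series ran against the other rats in 14 of the 20 top genes, and it was the single such rat for Plxnd1, Adgrl2, Slit2, Nrp2 and Syn2 among others. Both its libraries scored highest for their own label over the 102 libraries, but its DG library scored 0.28 for CA1 and 0.37 for DG. When centred over the 68 libraries alone, its DG library scored highest for CA1. Without R9865 and the other rats with such a library, 8 rats in all, the differences were 1.70 for Plxnd1, 3.11 for Adgrl2, -1.34 for Slit2 and -0.94 for Syn2.

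Markers of other cell types also differed, and for glia and vessels they did so in 1 direction. All 10 oligodendrocyte markers (median 0.67) and all 6 markers of oligodendrocyte precursors (median 0.50) were higher in CA1, as were 7 of 8 markers of endothelial and mural cells (median 0.37), beside 17.8% of all genes. Past the threshold in both series as well were 4 of the 10, 3 of the 6 and 5 of the 8, beside 5.33% of all genes. Mbp, the myelin basic protein, had 30673 to 135099.7 (median 64869) normalized counts in CA1 and 20159 to 97349.5 (median 38921) in DG, a difference of 0.86 ± 0.11 (adjusted p = 1.14e-07) with 29 of 34 rats higher in CA1. The summed oligodendrocyte markers ranged from 60941 to 235369 normalized counts in CA1 and from 37795 to 196323 in DG, and they were higher in CA1 in 31 of 34 rats. Cldn5, the tight junction protein of brain endothelium, differed by 0.65 ± 0.10 (adjusted p = 5.21e-06). The libraries of the subfields overlapped for all of these lists.

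Astrocyte and microglia markers differed in fewer members. Of 10 astrocyte markers 4 were higher in CA1 beside 17.8% of all genes (median 0.13), 1 of them in both series. Gfap, the intermediate filament of astrocytes, was among the 4 (0.26 ± 0.08, adjusted p = 0.0107), with 0.50 in R9 and 0.041 in R1-R2 rats, but lost its call without the 8 rats (0.18, adjusted p = 0.131). Slc1a2, the main glutamate transporter, gave -0.0045 (adjusted p = 0.964). Of 10 microglia markers 3 were higher in CA1 (median 0.11), Csf1r by 0.25 ± 0.05, and 0 of them passed the threshold in both series. Interneuron markers were higher in CA1 in 4 of 12 (median 0.20): Pvalb, the calcium buffer of basket cells (0.67 ± 0.11), Vip (0.89 ± 0.21), Reln (0.53 ± 0.091) and Slc32a1, the vesicular GABA transporter (0.35 ± 0.10). Gad1 and Gad2, which make GABA, gave -0.029 (adjusted p = 0.811) and 0.013 (adjusted p = 0.949), but without the 8 rats Gad2 was higher in CA1 (0.31, adjusted p = 0.0118). No marker of these 6 lists was higher in DG.

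Some markers of neighboring tissue were also higher in CA1. Of 6 markers of thalamic neurons 4 were (median 0.66), with Slc17a6, the vesicular glutamate transporter of the thalamus, at 64.9 to 775 (median 272) normalized counts in CA1 and 36.9 to 298 (median 91.9) in DG (1.27 ± 0.17). Of 6 meningeal markers 3 were (median 0.64) and of 6 ependymal and choroid plexus markers 2 (median 1.04), and the summed level of the last list reached 169254 in 1 CA1 library against a median of 293. Of these 3 lists, 2, 1 and 0 markers passed the threshold in both series as well. Over all genes 17.8% were higher in CA1, and 5.33% were so in both series as well. The summed thalamic markers ranged from 412 to 3905 in CA1 and from 204 to 2504 in DG, higher in CA1 in 31 of 34 rats. Of these lists no marker found in the table was at 0 in all libraries. Markers of CA3 and CA2 were split, with 3 of 9 higher in CA1 and 4 higher in DG (median 0.088), beside 17.8% and 17% of all genes. Kcnq5, a potassium channel (-1.13 ± 0.12), and Grik4, a kainate receptor subunit (-1.11 ± 0.11), were higher in DG. Rgs14, a signaling regulator of CA2 (0.68 ± 0.12), was higher in CA1. Of 2 genes listed here as markers of hilar mossy cells, the dopamine receptor gene Drd2 was higher in CA1 (1.47 ± 0.23). Calb2, which was also listed with the neurogenesis and immature neuron genes, gave -0.0048 (adjusted p = 0.985). The part of the tissue makeup in the gene differences was not tested.

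**Figure D4:**
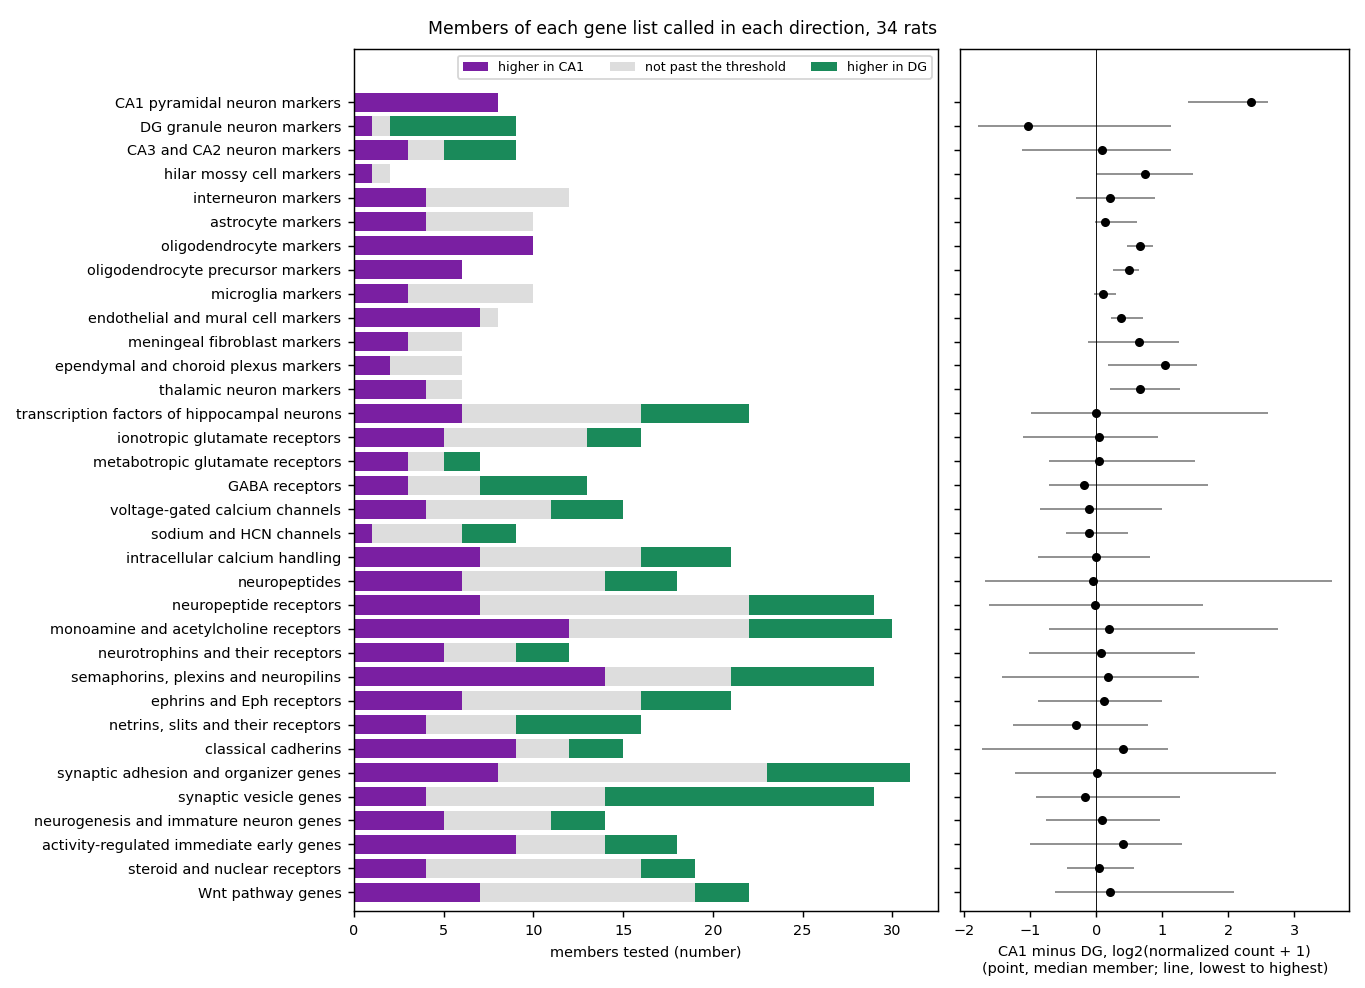
Left, number of tested members of each gene list higher in CA1, not past the threshold, or higher in DG (limma, adjusted p under 0.05, 34 rats). Right, median (point) and range (line) of the CA1 minus DG difference of the members in log2(normalized count + 1); all 10 oligodendrocyte markers lie above 0, while 15 of 29 synaptic vesicle genes were higher in DG.

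Glutamate receptor genes went both ways. Of 16 ionotropic receptor genes 5 were higher in CA1 and 3 in DG (median 0.034), beside 17.8% and 17% of all genes, and 0 and 2 of these also in both series. The counts of this and the following lists are to be read against these shares. The kainate receptor subunits took opposite sides. Grik4 had 569 to 2272 (median 1666) normalized counts in DG and 377 to 1551 (median 714) in CA1, a difference of -1.11 ± 0.11 (adjusted p = 6.14e-10), and Grik2 differed by -0.60 ± 0.10 in the same direction. Grik1 was higher in CA1 (0.59 ± 0.10, adjusted p = 1.52e-05), as were the NMDA receptor subunit genes Grin3a (0.94 ± 0.24) and Grin2d (0.43 ± 0.11). The AMPA receptor subunit Gria4 was higher in DG (-0.18 ± 0.065), which it was not without the 8 rats. For Grin1, the subunit common to NMDA receptors, the difference was -0.075 (adjusted p = 0.341), and for Gria1 -0.13 (adjusted p = 0.142). Without the 8 rats both were higher in DG, at -0.16 and -0.18. Of 7 metabotropic receptor genes, Grm8 (1.5 ± 0.23), Grm4 (0.74 ± 0.17) and Grm3 (0.38 ± 0.056) were higher in CA1, and Grm7 (-0.39 ± 0.059) was among those higher in DG (median 0.048).

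GABA receptor genes were higher in DG in 6 of 13 and in CA1 in 3 (median -0.18), of which 5 and 0 also in both series. Gabra2, an alpha subunit of the GABA-A receptor, had 529 to 2089 (median 1491) normalized counts in DG and 205 to 1419.6 (median 951) in CA1 (-0.71 ± 0.10, adjusted p = 7.49e-07). Gabra5, the subunit known for tonic inhibition in CA1, was also higher in DG (-0.62 ± 0.11, adjusted p = 4.09e-05), in 30 of 34 rats. In CA1 the called members were Gabrr2, a rho subunit at low counts (1.70 ± 0.31, medians 28.2 in CA1 and 7.76 in DG), Gabrg3 (0.53 ± 0.15) and Gabrb2 (0.19 ± 0.071). After TMM rescaling Gabrb2 was no longer past the threshold.

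Receptors for monoamines and acetylcholine were found on both sides. Of 30 tested, 12 were higher in CA1 and 8 in DG (median 0.20), and 10 and 4 of these also in both series. Drd5, a D1-like dopamine receptor, had 1.99 to 125 (median 41.4) normalized counts in CA1 and 0 to 59.4 (median 4.64) in DG, a difference of 2.75 ± 0.29 (adjusted p = 1.88e-09). Htr5b, a serotonin receptor, ranged over 37.8 to 1468 (median 370.3) in CA1 and 24.9 to 236 (median 99.9) in DG and differed by 1.89 ± 0.19 (adjusted p = 5.91e-10). With Htr1b these were the 3 largest differences of the list toward CA1. Toward DG they were Chrna7, the alpha 7 nicotinic receptor, with 158 to 669 (median 459.5) in DG and 77.8 to 619 (median 279) in CA1 (-0.72 ± 0.10, adjusted p = 7.44e-07), and the serotonin receptors Htr7 (-0.59 ± 0.12) and Htr1a (-0.57 ± 0.12). Serotonin receptors were divided, with 3 genes (Htr1b, Htr5b, Htr2c) higher in CA1 and 4 (Htr1a, Htr1f, Htr4, Htr7) higher in DG. The call of Htr1f was lost without the 8 rats (-0.40, adjusted p = 0.0523) and in aged rats only. The nicotinic receptor subunits Chrna3, Chrna4, Chrna5 and Chrnb4 were higher in CA1, opposite to Chrna7.

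Of 15 voltage-gated calcium channel genes 4 were higher in each subfield (median -0.12), beside 17.8% and 17% of all genes. In both series as well, 1 was higher in CA1 and 3 in DG. Cacna1c, the pore subunit of an L-type channel, had 724 to 2247 (median 1342) normalized counts in DG and 304 to 1261 (median 793) in CA1, a difference of -0.85 ± 0.10 (adjusted p = 6.52e-09). The other pore subunits Cacna1d, also L-type (-0.43 ± 0.086), and Cacna1b, N-type (-0.29 ± 0.045), were on the same side. The members higher in CA1 were Cacna2d2, an auxiliary subunit (0.99 ± 0.15), and the Cacng family genes Cacng5 (0.71 ± 0.28), Cacng4 (0.40 ± 0.11) and Cacng3 (0.29). The call of Cacng5 was lost at a pseudocount of 0.5, with no filter and with no replicate block, and that of Cacng4 without the 8 rats. Cacng3 lost its call without the 8 rats (0.14, adjusted p = 0.181), with no replicate block, and in aged or young rats only. Without the 8 rats 2 of the 15 were higher in CA1 and 4 in DG. Among 9 genes of sodium and HCN channels, Hcn2, which carries the pacemaker current, was higher in CA1 (0.32 ± 0.087), and Scn2a (-0.29 ± 0.063) and Scn2b (-0.26 ± 0.076) of the sodium channel were among 3 higher in DG (median -0.11).

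The release channels for intracellular calcium took opposite sides. Itpr1, the type 1 IP3 receptor, had 4056 to 14600.1 (median 8733) normalized counts in CA1 and 3371 to 9209 (median 5189) in DG, a difference of 0.71 ± 0.074 (adjusted p = 1.33e-09). Ryr2, a ryanodine receptor, had 4465 to 13209 (median 10021) in DG and 2744 to 7034 (median 5248) in CA1, a difference of -0.88 ± 0.087 (adjusted p = 3.72e-10). Of 21 genes of calcium handling 7 were higher in CA1 and 5 in DG (median -0.0048). Among the sodium-calcium exchangers Slc8a3 was higher in CA1 (0.69 ± 0.12) and Slc8a2 in DG (-0.44 ± 0.091). Atp2a3, a calcium pump of the endoplasmic reticulum, was higher in CA1 (0.81 ± 0.12), and Ppp3r1, the regulatory subunit of calcineurin, in DG (-0.38 ± 0.095). Calb1, the calcium buffer calbindin known from granule cells, gave -0.24 ± 0.13 and missed the threshold (adjusted p = 0.155).

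The neuropeptide list held the largest difference of all genes. Nts had 41.8 to 804 (median 454) normalized counts in CA1 and 0 to 289 (median 53.3) in DG, a difference of 3.57 ± 0.46 (adjusted p = 9.74e-08), with 2.37 in R9 and 4.64 in R1-R2 rats. The ranges overlapped, and 31 of 34 rats had more in CA1. Of 18 peptide genes 6 were higher in CA1 and 4 in DG (median -0.054). Tac1, the precursor of substance P (0.99 ± 0.22), and Vip were next in CA1. In DG, besides Pdyn, Nmb, the precursor of neuromedin B, differed by -1.68 ± 0.26 (medians 39.4 in CA1 and 111 in DG), and Scg2, a granin of dense-core vesicles, by -0.80 ± 0.086 (adjusted p = 2.64e-09).

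Of 29 neuropeptide receptors 7 were higher in each subfield (median -0.027), beside 17.8% and 17% of all genes, and 3 in CA1 and 4 in DG also in both series. Without the 8 rats 12 were higher in CA1 and 8 in DG. The largest toward DG were Hcrtr2 (-1.62 ± 0.22, medians 17.1 in CA1 and 49.2 in DG), Npy2r, a receptor for neuropeptide Y (-1.61 ± 0.27, medians 54.4 in CA1 and 166 in DG), and Trhr, the receptor for thyrotropin-releasing hormone (-1.26 ± 0.26). Toward CA1 they were Tacr3, the neurokinin 3 receptor (1.61 ± 0.35, medians 59.7 in CA1 and 13.5 in DG), Oxtr, the oxytocin receptor (1.03 ± 0.36), and Sstr2, a somatostatin receptor (0.82 ± 0.19). Somatostatin receptors were divided, with Sstr1, Sstr2 and Sstr4 higher in CA1 and Sstr3 higher in DG. Npy5r, like Npy2r, was higher in DG (-0.80 ± 0.10).

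Members of the neurotrophin list were called in both directions. Bdnf, the brain-derived neurotrophic factor, had 225 to 1018 (median 666) normalized counts in DG and 87.1 to 649 (median 328) in CA1, a difference of -1.0 ± 0.12 (adjusted p = 3.25e-08). Ntf3 (neurotrophin 3) differed by -1.02 ± 0.16 (adjusted p = 2.27e-06; medians 89.7 in CA1 and 172 in DG) and its receptor Ntrk3 by -0.42 ± 0.064, both higher in DG. Ngfr, the p75 receptor (1.21 ± 0.23), and Gfra2, the co-receptor for neurturin (1.49 ± 0.23), were higher in CA1. In all, 5 of 12 members were higher in CA1 and 3 in DG (median 0.075).

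Guidance molecules divided within each family. Of 29 semaphorins, plexins and neuropilins 14 were higher in CA1 and 8 in DG (median 0.18). Plxnd1, Sema3a (1.43 ± 0.26) and Sema3f (1.42 ± 0.22), the last a ligand of Nrp2, led toward CA1. Sema3c, another secreted semaphorin, had 129.5 to 867 (median 471) normalized counts in DG and 25 to 429.8 (median 166) in CA1 (-1.43 ± 0.15, adjusted p = 2.65e-09), and Nrp2 and Sema5a (-1.03 ± 0.14) were also higher in DG. Sema5a and Sema5b, the transmembrane members of class 5, differed in opposite directions. Of 21 ephrins and Eph receptors 6 were higher in CA1 and 5 in DG (median 0.12). The receptors Ephb3 (0.99 ± 0.10), Ephb6 (0.76 ± 0.10) and Epha10 (0.65 ± 0.078) led in CA1, and Epha8 (-0.89 ± 0.16), Epha7 (-0.63 ± 0.12) and Epha3 (-0.60 ± 0.11) in DG.

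Netrins, slits and their receptors were higher in DG in 7 of 16 members and in CA1 in 4 (median -0.30), and without the 4 rats in 10 and 4. Unc5d, a netrin receptor, had 296 to 1569.7 (median 961) normalized counts in DG and 92.6 to 802 (median 426) in CA1, a difference of -1.26 ± 0.16 (adjusted p = 8.29e-08). Dcc, the netrin receptor of growing axons (-0.68 ± 0.084), was on the same side as Slit2. In CA1 the leading members were Unc5b (0.78 ± 0.091), Ntn4 (0.65 ± 0.09) and Ntn3 (0.47 ± 0.11). All 4 Unc5 and Dcc receptors tested were called, with Unc5b alone higher in CA1.

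Cadherins, which bind cells of like type to each other, were higher in CA1 in 9 of 15 and in DG in 3 (median 0.41). Cdh9, known from the mossy fiber synapse, had 122 to 1225 (median 772) normalized counts in DG and 30.6 to 728 (median 234) in CA1, a difference of -1.73 ± 0.17 (adjusted p = 4.64e-10), followed by Cdh12 (-0.83 ± 0.13) and Cdh13 (-0.36 ± 0.10). Cdh6 (1.08 ± 0.095), Cdh22 (1.02 ± 0.13) and Cdh1 (1.02 ± 0.20) led in CA1. Of 31 synaptic adhesion and organizer genes 8 were higher in each subfield (median 0.015). Besides Adgrl2, Cbln2, a secreted synapse organizer (1.23 ± 0.17), and Flrt2, a ligand of latrophilins (0.68 ± 0.083), were higher in CA1. Flrt3, a paralog of Flrt2, was higher in DG: it had 267 to 789.8 (median 634) in DG and 110.2 to 1262 (median 320.1) in CA1 (-0.94 ± 0.13, adjusted p = 3.38e-07). C1ql2 and Lrrtm4 (-0.55 ± 0.11) were the other leading members in DG.

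The synaptic vesicle list was the one with the most members higher in DG, 15 of 29 against 17% of all genes, with 4 higher in CA1 (median -0.17). In both series as well, 6 were higher in DG and 1 in CA1. Syn2, Cplx2 (complexin 2, a regulator of fusion; -0.83 ± 0.10) and Stx1a (syntaxin 1A; -0.59 ± 0.09) led. Slc17a7, the vesicular glutamate transporter VGLUT1, had 16492 to 47601 (median 28080.4) normalized counts in DG and 12611 to 35617 (median 19691) in CA1 (-0.53 ± 0.076, adjusted p = 6.59e-07), and was higher in DG in 31 of 34 rats. Snap25, of the fusion complex, was also higher in DG (-0.43 ± 0.078), as was Syn1 (-0.43 ± 0.066). The 4 members higher in CA1 included Slc17a6, Cplx3 (1.02 ± 0.19) and Syt2 (0.68 ± 0.21). The summed oligodendrocyte markers went the other way from most called members of this list, higher in CA1 in 31 of 34 rats. Their part in these differences was not tested. All of these vesicle genes with a DG call that are named here kept it without the 4 rats.

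Transcription factors of hippocampal neurons were called in 6 of 22 members in each direction (median -0.0063). Among those higher in CA1 were Fezf2 (1.05 ± 0.11) and Etv1 (0.89 ± 0.12). In DG, after Prox1, the leading factors were Zfpm2 (FOG2, a cofactor of GATA factors), with 200.4 to 956 (median 514) in DG and 123 to 404 (median 261) in CA1 (-0.91 ± 0.10, adjusted p = 2.71e-09), and Neurod1, which drives granule cell differentiation (-0.77 ± 0.10, adjusted p = 1.18e-07).

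Genes of adult neurogenesis, which takes place in the DG, were called in both directions. Of 14 tested, 3 were higher in DG and 5 in CA1 (median 0.083), beside 17% and 17.8% of all genes, and 2 and 2 of these also in both series. Neurod1, the proliferation marker Mki67 (-0.70 ± 0.11, medians 95.9 in CA1 and 157 in DG) and Dcx (doublecortin, of immature neurons; -0.30 ± 0.11, adjusted p = 0.0241) were the 3. Dcx lost its call without the 4 rats. Igfbpl1 (0.94 ± 0.30) and Stmn1, a microtubule regulator (0.36 ± 0.10), were among those higher in CA1.

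Immediate early genes, which neuronal activity induces, were higher in CA1 in 9 of 18 and in DG in 4 (median 0.41). Arc, a regulator of synaptic receptor trafficking, had 654 to 2840.2 (median 1483) normalized counts in CA1 and 381 to 1835 (median 649) in DG, a difference of 1.14 ± 0.10 (adjusted p = 5.17e-11) with 32 of 34 rats higher in CA1. Nr4a1 and Egr2 (1.17 ± 0.33) were the other leading members, and Egr1 (0.68 ± 0.078) and Fos (0.68 ± 0.14) were on the same side. In DG they were Bdnf, Nr4a3 (-0.62 ± 0.071, adjusted p = 1.03e-08) and Jun (-0.44 ± 0.12). Nr4a3 had 610.5 to 1813 (median 1144) in DG and 514 to 1181 (median 731) in CA1, and its family was divided, with Nr4a1 and Nr4a2 (0.66 ± 0.11) higher in CA1 and Nr4a3 higher in DG.

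Among 19 steroid and nuclear receptor genes 4 were higher in CA1 and 3 in DG (median 0.037), beside 17.8% and 17% of all genes, and 0 and 1 of these also in both series. Without the 8 rats 7 and 4 were. Rxra (0.58 ± 0.12) and Rara (0.55 ± 0.11), receptors for retinoids, were higher in CA1. The 3 higher in DG were Fkbp5, a co-chaperone of the glucocorticoid receptor, with 786 to 1769 (median 1339.9) normalized counts in DG and 563 to 1441 (median 941) in CA1 (-0.44 ± 0.049, adjusted p = 3.36e-09), Pgr (-0.28 ± 0.10) and Thra (-0.25 ± 0.061). The glucocorticoid and mineralocorticoid receptors Nr3c1 (0.20, adjusted p = 0.078) and Nr3c2 (-0.058, adjusted p = 0.584) missed the threshold, which Nr3c1 passed toward CA1 without the 8 rats (0.36). Of 22 genes of the Wnt pathway 7 were higher in CA1 and 3 in DG (median 0.21). The receptors Fzd7 (2.09 ± 0.36, medians 55.8 in CA1 and 9.37 in DG), Fzd1 (0.81 ± 0.10) and Fzd2 (0.58 ± 0.11) led in CA1, and the secreted Dkk3 (-0.63 ± 0.065, medians 2058 in CA1 and 3269 in DG), Wnt4 (-0.55 ± 0.11) and the receptor Fzd3 (-0.17 ± 0.064) in DG. Fzd3 was not past the threshold without the 4 rats.

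The size of the difference was then compared between the series of rats, on the differences within rats. Of 16301 genes 1164 differed between series (7.14%), 665 with a more positive and 499 with a more negative CA1 minus DG difference in R1-R2. The 4 libraries that scored highest for another subfield over the 102 libraries were all of R9 rats. Without the rats R9781, R9869, R9872 and R9881, which left 12 R9 rats, 45 genes differed. Without all 8 rats with a library that scored for another subfield over the 68 libraries, which include R2232 of R1-R2, 57 did. Fewer rats entered both fits, and the cause of the lower counts was not tested. Etv1 had the smallest adjusted p (0.0058). It had 675 to 4891 (median 1579) normalized counts in CA1 and 547 to 1392 (median 824) in DG, and was higher in CA1 by 0.36 in R9 and 1.36 in R1-R2 rats. Ociad2 (0.56 and 1.73) and Dcn, a proteoglycan of fibroblasts (0.52 and 1.91), were likewise higher in CA1 in both series and by more in R1-R2. Fxyd7, a regulator of the sodium pump, was higher in DG in both series (-0.82 and -2.03). Opposite signs were found for Pex16, a peroxisome assembly protein, higher in CA1 in R9 (0.54) and in DG in R1-R2 rats (-0.29), each past the threshold in its series. Kcnip2, a channel-interacting protein, and Ephb2 passed in R1-R2 alone (-0.81 and -0.59, against 0.14 and 0.14 in R9). With the 4 rats left out, the differences between series still passed the threshold for 9 of the 10 named genes, all but Hps4, a protein of lysosome-related organelles (0.55 in R9 and -0.02 in R1-R2 rats). Without the 8 rats they did so for 5 of the 10, and were lost for Ephb2, Hps4, Ociad2, Plcxd3 and Ppp2r2b.

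Last, the difference between CA1 and DG was compared by age and by cognitive status. No gene differed between 24 aged and 10 young rats in CA1 minus DG (0 of 16301, 0%; limma on differences within rats, smallest adjusted p 0.9998), while 405 had an unadjusted p under 0.05 (2.48%). Between 12 AI and 12 AU rats no gene of 16312 did so either (0%; smallest adjusted p 0.619), with 496 at an unadjusted p under 0.05 (3.04%). The counts were also 0 under each of the pseudocounts, the stricter filter, TMM rescaling, no replicate block, the series as a covariate and without the 4 or the 8 rats. The gene nearest to the threshold by cognitive status was Ipcef1, with a CA1 minus DG difference of -1.08 ± 0.517 (SD, n = 12) in AU and 0.035 ± 0.648 (SD, n = 12) in AI rats, and -0.31 ± 0.95 (SD, n = 10) in young rats. Lrrtm4, a synaptic organizer, and Ntng1, a netrin-like adhesion protein, were also among the 5 with the smallest p in this direction. The CA1 minus DG difference of Lrrtm4 was -1.07 ± 0.502 in AU and -0.17 ± 0.623 in AI rats (adjusted p of the difference 0.928). The CA1 minus DG difference of Nov was 2.63 ± 1.04 in young, 2.15 ± 1.82 in AU and 2.5 ± 0.979 in AI rats, and that of Syn2 -0.77 ± 0.448, -0.98 ± 0.584 and -0.98 ± 0.263. The group means of these 2 genes differed by less than their SD. A p that misses the threshold does not show that the groups were alike.

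**Figure D5:**
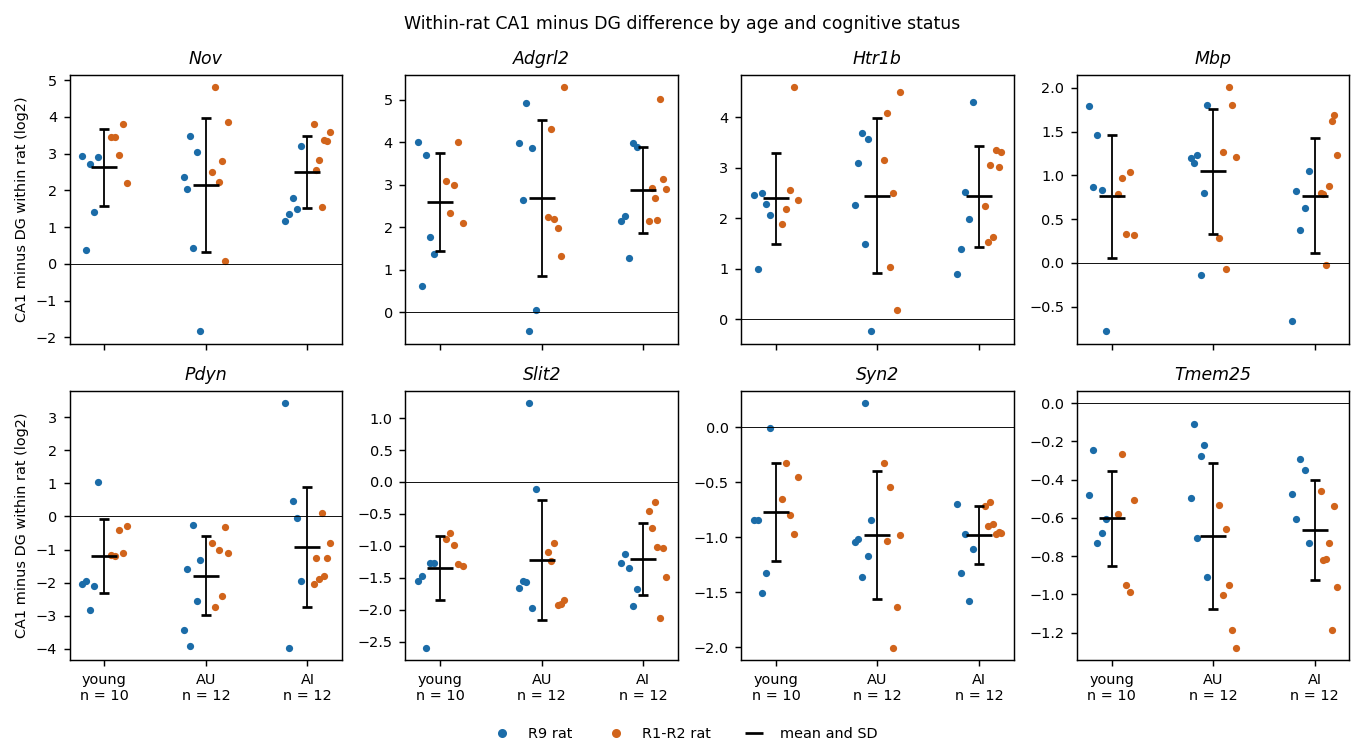
CA1 minus DG difference within each rat, in log2(normalized count + 1), of 8 genes in 10 young, 12 AU and 12 AI rats; points are rats, colored by series, and bars show the mean and SD. The groups overlap in every panel, and for Tmem25 all 34 rats lie below 0.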

How the data were processed

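Poly-A RNA of CA1, CA3 and DG of 34 rats was sequenced on the Ion Proton, and the 34 CA1 and 34 DG libraries were analysed. Per the study's methods, the authors aligned reads with TopHat2 and Bowtie2 in Partek to rn5 (Rnor_5.0), and counted them per gene with featureCounts 1.4.4. DESeq2 1.10.1 is named for the authors' tests, and how the counts were normalized is not given in the sources used here. The deposited values are a normalized signal: in each library they are whole multiples of 1 step, read here as reads per gene over a size factor, and 100% came out as whole reads (tolerance 0.001), which gave the depths. Depth and the number of rats limit precision, and low genes are the least certain.

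Differences were fitted with limma 3.58.1 in R 4.3.3 on log2(value + 1), with the rat as block, and 16301 genes averaging 5 or more were tested. The pairing comes from the rat number, which names the same animal. The mean correlation of the residuals of the CA1 and DG library of a rat was 0.0544 against -0.000911 for different rats, and 11 of 34 rats were above 0.1. Differences by series, age and cognitive status were fitted on within-rat values, and p-values were Benjamini-Hochberg adjusted over all genes tested. The test was checked on simulated data. edgeR 4.0.16 and DESeq2 1.42.0 on the recovered reads, other pseudocounts and filters, TMM rescaling, no block, single ages and fits without some rats were alternatives. The fit without the 4 rats named in the report was chosen after the data were seen.

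The members, the 13 cell type lists and the 21 functional lists were chosen with earlier results of these data known. Of 576 listed symbols 521 were in the table, and 55 were not. Named genes were, for each direction, the 10 lowest by adjusted p of those called over all rats and in both series, 10 lead markers, up to 3 called members per functional list and direction, and up to 5 genes per direction for each difference between groups. Other members of the lists, and genes called in every rat, were named after their values were seen. Of 26689 genes 4719 had no symbol. The 34 CA3 libraries were used only for the marker scores. Promoters came from RefSeq (GRCr8). Counting by strand was not given in the sources used here, so overlapping genes and near-identical copies are uncertain. Some list members are not reported by name here.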

Additional observations from a re-analysis of the deposited data

Results flagged for a closer look

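In 24 of 189 genes followed, the CA1 minus DG difference itself differed between the series of rats (limma on within-rat differences, adjusted p under 0.05), beside 7.14% of all genes. Etv1, Plcxd3, Ociad2, Dcn, Ppp2r2b, Fxyd7, Pex16, Ephb2, Kcnip2 and Hps4 were followed because of their small p in this same test, so the 24 are no measure of how common such genes are. Each value is the difference in R1-R2 minus that in R9 rats on the log2 scale. It was positive for Tacr3 (2.45), Htr2c (1.69), Grin3a (1.52), Plcxd3 (1.42), Dcn (1.38), Ociad2 (1.17), Etv1 (0.99), Man1a1 (0.95), Calb1 (0.75), Dcx (0.66), Grik1 (0.65), Ppp2r2b (0.60), Nr3c1 (0.58) and Scn2a (0.37). It was negative for Fxyd7 (-1.20), Epha8 (-1.07), Kcnip2 (-0.95), Pex16 (-0.83), Ephb2 (-0.73), Hps4 (-0.57), Gfap (-0.46), Syn1 (-0.39), Grin1 (-0.36) and Tmem25 (-0.31). All 4 libraries that scored highest for another subfield over the 102 libraries are of R9 rats, and the fit was repeated without their 4 rats. The difference between series then still passed for 10 of the 24, Dcn, Fxyd7, Etv1, Ephb2, Kcnip2, Pex16, Plcxd3, Calb1, Ociad2 and Ppp2r2b. It was lost for 14, with the same signs and adjusted p from 0.0533 to 0.101: Hps4 (-0.52), Nr3c1 (0.63), Dcx (0.67), Grin1 (-0.37), Tacr3 (2.14), Tmem25 (-0.33), Gfap (-0.48), Htr2c (1.31), Grin3a (1.39), Scn2a (0.37), Epha8 (-0.73), Grik1 (0.56), Syn1 (-0.36) and Man1a1 (0.75). Fewer R9 rats, 12, entered this fit.

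Among the 10 young rats, 1 rat stood apart from the other 9 in 7 of the 29 lead and top genes, by a gap that took a larger share of the whole range than Dixon's critical value for 10 samples allows. For C1ql2 (2.48), Prox1 (1.42), Plk5 (1.4), Dsp (1.36) and Nrn1 (0.50), each a CA1 minus DG difference on the log2 scale, it was R9881, whose DG library scored highest for CA3. For Htr1b it was R2176 (4.61) and for Slit2 R9877 (-2.60), both in the direction of the other young rats. Chance sets a rat apart in about 1 in 20 such groups.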

How the results depend on the processing

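The counts of genes higher in CA1 and in DG stayed within 1.5 times of those reported under other pseudocounts, filters, TMM rescaling, edgeR, DESeq2 and without 4 or 8 rats. With no replicate block, so without the pairing of the libraries of a rat, they were 2653 and 2550. They were 1902 and 1796 in aged rats only, and 1399 and 1116 in young rats only, where fewer rats entered. The count of genes that differed between series was 1164, and it was 270 with no replicate block, 45 without the 4 rats and 57 without the 8 rats, and the cause was not tested.

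Of 2332 values of named genes under alternatives, 2228 kept direction and side of the threshold, 84 lost a call, 9 gained one and 11 changed sign. Without the 8 rats, Pex16 gave -0.0864 and Ppp2r2b 0.0060 for CA1 minus DG, and the cause was not tested. The other sign changes were in genes that did not pass the threshold in the reported fit or under the setting named: Calb2 (0.0042 without the 4 rats, 0.0380 without the 8, 0.0006 in aged rats only), Gad1 (0.0142 without the 4 rats, 0.1201 without the 8, 0.0874 in young rats only), Gad2 (-0.0606 in aged rats only) and Slc1a2 (0.0453 without the 8 rats, 0.0068 in young rats only). With no replicate block the calls of Cacng3, Cacng5, Dcx, Fzd3 and Gabrb2 were among those lost. C1ql2 was the 1 lead marker that lost its call in young rats only. TMM rescaling shifted the median difference by -0.010. Depth limits genes with few counts, and what sets the series of rats apart is not in the labels.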

Other observations

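Leaving out the 4 rats whose library scored highest for another subfield moved the calls of 32 of the 34 gene lists by at most 1 gene in either direction. Netrins, slits and their receptors then had 10 of 16 members higher in DG, and 4 of 6 ependymal and choroid plexus markers were higher in CA1.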
